A study of Mus musculus with 74 samples.

Results

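Imprinted genes are transcribed from only the maternal or only the paternal copy, and many of them set the size of the embryo and placenta. The imprinted growth genes Mest, Igf2, Igf2r, Plagl1, Peg3, Cdkn1c, Dlk1, Grb10 and Ndn were followed through single cells of the mouse pro-epicardial organ. They were chosen as a named list of 10 symbols, of which Zac1 is an older symbol of Plagl1, so the list holds 9 genes of the 30323 lines in the count table. The rule uses no measured value, but the list was chosen with earlier results of these data known. All 9 genes were found and had counts in at least 67 of 74 cells.

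The data are transcriptomes of 74 single cells from C57BL/6 mouse embryos, taken on embryonic day 9.5. This organ is a short-lived outgrowth at the venous pole of the heart tube that supplies the epicardium, the outer layer of the heart. The embryos carried Tbx18Cre;mTmG, a Cre recombinase under control of Tbx18 together with a membrane reporter that changes colour in Cre-expressing cells and their descendants. Labelled cells were sorted by flow cytometry and each was prepared as its own full-length polyA library, so all cells belong to 1 group without treatment or control. The series asks how heterogeneous such cells are. Cells that never expressed the driver were not sampled, and cells that had already switched Tbx18 off can carry the label. The labels name no embryo, litter or plate, so the 74 cells count as 1 sample. For this reason cells and states are described without tests or p-values. SDs are over cells, and intervals are exact 95% Clopper-Pearson intervals that cover only the counting of cells.

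The fetal growth factor IGF2, made from the paternal copy, drives proliferation through receptors of the insulin family, and IGF2R, made from the maternal copy in mice, removes it from the cell surface and carries it to lysosomes. PLAGL1 is a zinc-finger transcription factor that binds near several imprinted genes, and PEG3 is another zinc-finger protein of imprinted origin. CDKN1C blocks cyclin-dependent kinases and GRB10 dampens signalling by insulin-type receptors, so both of these maternally expressed genes restrain growth, while the paternally expressed genes Mest, Dlk1 and Ndn encode a hydrolase-like membrane protein, a Delta-like ligand of fetal cells and a MAGE-family protein. Of the 9 genes, 6 are known as paternally expressed and 3 as maternally expressed. Gene counts do not tell the parental copies apart, so imprinting itself was not measured here.

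Promoter windows are shown for 3 of the genes on which the results turn, because imprinted control regions often lie at such start sites and the windows differ in the letters that mark them. Each holds the 250 bases upstream of a RefSeq start site on GRCm38.p6, written from 5′ to 3′ on the gene's strand. Capitals mark the hexamer TGCCGC or its reverse complement GCGGCA, the letters that ZFP57, a zinc-finger protein that protects imprints, binds when they are methylated. The Mest window at chr6:30737800-30738049 on the plus strand lies in an intron of the GENCODE gene, upstream of an internal start. The Plagl1 window at chr10:13090582-13090831 on the plus strand lies inside the gene and overlaps an exon in part. The Peg3 window at chr7:6730420-6730669 on the minus strand lies across the annotated start of the gene.
Mest: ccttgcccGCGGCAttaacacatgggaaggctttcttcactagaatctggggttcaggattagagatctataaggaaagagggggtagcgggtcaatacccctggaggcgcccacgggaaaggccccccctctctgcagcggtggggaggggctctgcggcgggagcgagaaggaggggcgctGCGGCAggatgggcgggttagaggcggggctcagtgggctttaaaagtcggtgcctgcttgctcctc
Plagl1: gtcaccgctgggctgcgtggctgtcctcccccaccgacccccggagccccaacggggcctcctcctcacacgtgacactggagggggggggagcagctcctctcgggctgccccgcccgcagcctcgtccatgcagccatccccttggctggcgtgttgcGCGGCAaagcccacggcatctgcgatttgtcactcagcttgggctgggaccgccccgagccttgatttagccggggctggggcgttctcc
Peg3: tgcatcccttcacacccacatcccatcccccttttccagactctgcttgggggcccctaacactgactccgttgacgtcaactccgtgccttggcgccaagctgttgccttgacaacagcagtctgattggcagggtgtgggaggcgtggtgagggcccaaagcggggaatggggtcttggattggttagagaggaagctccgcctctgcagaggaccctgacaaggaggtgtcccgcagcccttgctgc

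RefSeq windows were given for 8 of the 9 genes, 14 windows in all. The hexamer stood in both windows at the internal Mest start, which overlap each other and share the 2 copies, and in the Plagl1 window, which held 1 copy. It was in no window of the other 6 genes searched, and 8.68% of all 32851 windows of the same length held it on either strand. The Mest window shown held 14 CpG dinucleotides, the Plagl1 window 19 and the Peg3 window 8, against a median of 6 over all windows. A match or its absence describes these letters in these windows and says nothing of binding in the cells.

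Cells were grouped into states by clustering that left out the genes of the imprinted lists. A line without a symbol, equal to that of Dlk1 in all 74 cells, was not left out. Dlk1 ranked 225 of 12304 genes by variance above the trend, high enough for the 1000 genes used. Dlk1 values could therefore shape the groups, while the other members had no such equal line. Genes outside the imprinted lists could enter the clustering, and their levels by state are given below only as a description of the states. The first state held 28 cells (37.8%, interval 26.8% to 49.9%). It was called epicardial-like, since 15 of 19 epicardial markers were detected, at 5 or more counts, in at least 50% of its cells and Aldh1a1 and Upk1b were among its leading genes. The second held 36 cells (48.6%, interval 36.9% to 60.6%) and is called Shisa3-led, because its leading genes (Shisa3, Lhx2, Tmem119, Hmcn1, Pdgfrb, Tgfbi, Dkk1, Tnc, Mmp2, Cyp1b1) included members of both the septum transversum and the fibroblast lists. It was loosely bound, with a mean silhouette of 0.0416 and 11 cells closer to another state, and its summed cardiomyocyte markers ranged from 185 to 11674 CPM (counts with each cell scaled to the same total). The third held 10 cells (13.5%, interval 6.68% to 23.5%) and was cardiomyocyte-like, with 13 of 18 cardiomyocyte markers in at least 50% of cells and Myh6 and Csrp3 among its leading genes. Wt1, a defining epicardial factor, was detected in 28 of 28 epicardial-like cells, 29 of 36 Shisa3-led cells and 3 of 10 cardiomyocyte-like cells. For Tbx18, the driver of the label, the numbers were 28 epicardial-like, 34 Shisa3-led and 7 cardiomyocyte-like cells. Total counts ran from 216177 to 2618538 per cell, and the states had similar medians of 810674, 927225 and 796678 counts. Summed hepatoblast markers had medians of 14.7, 10.4 and 41.4 CPM and a highest cell of 429 CPM, and summed endothelial markers had medians of 183, 137 and 71.5 CPM. Summed erythroid markers had medians of 14.2, 30.7 and 51.9 CPM but reached 1551 CPM in the highest Shisa3-led cell. For neural crest markers the medians were 46.5, 42.0 and 0.99 CPM. The median sum of leukocyte markers was 0 in each state.

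Expression of the list was broad. Every gene except Dlk1 was detected in 74 of 74 cells (interval 95.1% to 100%), and Dlk1 in 61 of 74 (82.4%, interval 71.8% to 90.3%). Per kilobase of the longest annotated transcript, the order of mean levels was Mest at 1170 CPM, Cdkn1c at 552, Igf2 at 207, Peg3 at 183, Ndn at 120, Plagl1 at 83.4, Grb10 at 81.0, Igf2r at 24.2 and Dlk1 at 22.6 CPM per kilobase. Exon union length gave the same order. Among neighbours in this order, only the steps between Cdkn1c and Igf2 and between Grb10 and Igf2r were larger than the SD over cells of either gene. That SD was 289 CPM per kilobase for Cdkn1c, 73.0 for Igf2, 33.2 for Grb10 and 14.0 for Igf2r. The other neighbours did not differ beyond their spread.

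The genes also differed in how evenly they were expressed. Grb10, with a coefficient of variation of 40.9%, and Igf2, with 35.2%, varied least over cells. Dlk1 (114%) and Plagl1 (104%) varied most. Set against the trend of variance with level, Dlk1 stood at percentile 98.2 of 12304 genes, Mest at 94.1 and Plagl1 at 92.1, while the other 6 genes lay between percentiles 46.1 and 72.4. The uneven genes were thus all paternally expressed ones, and the evenly expressed ones came from both parental classes.

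The uneven genes were also the genes that passed a 2-fold rule between states. Genes were called higher or lower in a state when its mean CPM was at least 2-fold that of all other cells, or the reverse. Mest was higher and Plagl1 lower in epicardial-like cells, Plagl1 and Dlk1 were higher in Shisa3-led cells, and Mest and Dlk1 were lower in cardiomyocyte-like cells. Igf2r, not among the uneven genes, was just within the rule, with log2 ratios of 0.92 in cardiomyocyte-like and -0.91 in epicardial-like cells. Set directly against each other, these states differed 2.61-fold in Igf2r. Of all 11511 genes measured, 5.13% were higher and 11.4% lower in epicardial-like cells. The shares were 6.95% and 5.78% in Shisa3-led cells, and 8.29% and 17.2% in cardiomyocyte-like cells. Counting any state and direction, 3 of 9 imprinted growth genes (33.3%) were called, against 32.9% of all genes. The list as a whole was therefore called about as often as any gene, and the results below concern single members.

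**Figure D1:**
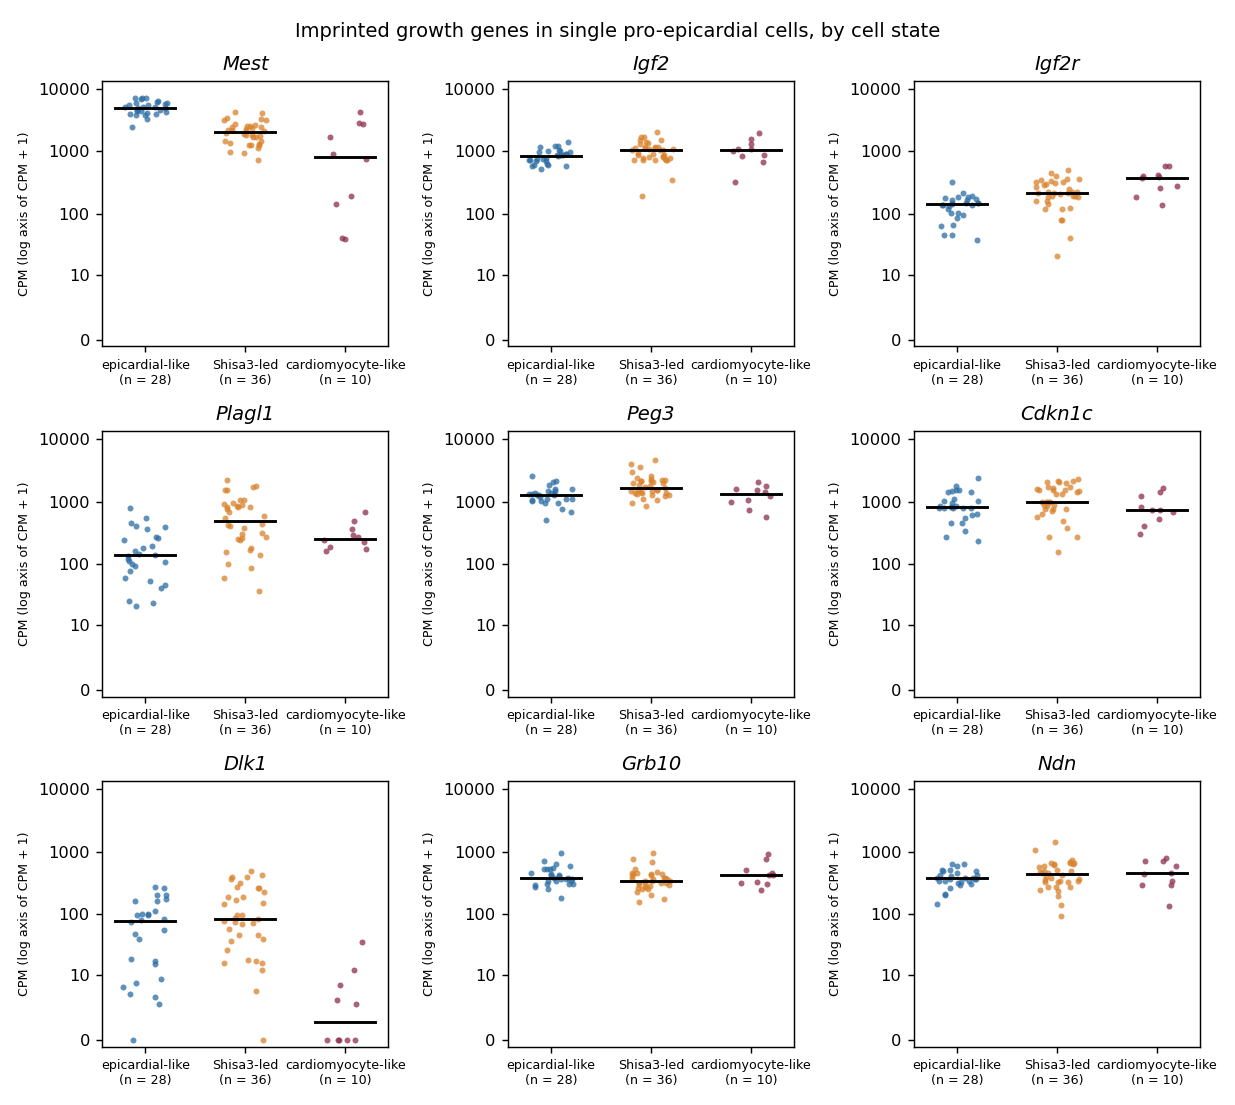
Levels of the 9 imprinted growth genes in single cells (CPM on a log axis of CPM + 1), with 1 point per cell and a bar at the median of each state. Mest separates epicardial-like cells from nearly all others, Plagl1 spreads widely with its highest cells in the Shisa3-led state, Dlk1 is at or near 0 in most cardiomyocyte-like cells, and Igf2, Grb10 and Ndn have similar medians in all 3 states.

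Mest (ENSMUSG00000051855, GRCm38 chr6:30723547-30748465, plus strand) was the most abundant gene of the list and marked the epicardial-like state. Its level ran from 2449 to 7112 CPM in epicardial-like cells, with a median of 4997, against 39.8 to 4303 CPM with a median of 1855 in the other 46 cells. Of 28 epicardial-like cells, 20 lay above every other cell, and 27 lay above the median of all cells. Mean levels were 5052 ± 1204 CPM in epicardial-like cells and 1940 ± 1046 CPM in the other cells, a log2 ratio of 1.38. The difference exceeded the SD of either group and stayed past 2-fold in all 15 alternatives run (log2 ratio 1.17 to 1.47). Among the 15 alternatives for any such ratio, the 1.5-fold setting changes only the mark and leaves the ratio as it was. Part of the Mest transcript region (912 bases) overlaps Copg2 on the opposite strand, and the library kit is not stated to keep strand. Copg2 averaged 58.4 CPM in epicardial-like cells and 71.8 CPM in the other cells; the part of shared reads in either level was not tested.

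The Shisa3-led cells held intermediate Mest, at 724 to 4227 CPM with a mean of 2098 ± 848, against 4082 ± 2073 CPM in all other cells, just within 2-fold. Cardiomyocyte-like cells were mixed. Mest in the 10 cells was 39.8, 40.9, 145, 192, 748, 898, 1690, 2769, 2850 and 4303 CPM. The lowest 4 of these cells lay below every one of the other 64 cells, where the minimum was 724 CPM, while the highest 3 were as high as typical non-muscle cells. The mean was 1368 ± 1487 CPM in cardiomyocyte-like cells and 3391 ± 1789 CPM in the other cells, a log2 ratio of -1.31. With 500 variable genes in the clustering, where this state held 23 cells, the ratio was -0.99.

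The genes whose pattern over the 74 cells was most like that of Mest, ranked by Spearman's rho among 7944 genes detected in at least 50% of cells, were Lrrn4 (0.75), Rap2c (0.70), Tmem98 (0.69), Wt1 (0.68) and Tmem151a (0.68). Lrrn4 and Wt1 are mesothelial and epicardial genes. Of 17 measured epicardial markers, 14 had a rho of at least 0.3 with Mest, against 7.92% of all genes. The mean level of the epicardial list correlated with Mest at 0.72 over all cells, but at 0.22 within epicardial-like cells and -0.12 within Shisa3-led cells. The relation thus followed the difference between states and was weak among cells of the same state.

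Plagl1 (ENSMUSG00000019817, GRCm38 chr10:13060504-13131694, plus strand) had its highest mean in Shisa3-led cells and its lowest in epicardial-like cells, where Mest was highest. It ran from 37.6 to 2211 CPM in Shisa3-led cells, with a median of 491, against 21.1 to 803 CPM with a median of 178 in the other 38 cells. The groups overlapped widely, yet 14 of 36 Shisa3-led cells lay above every other cell. Its mean was 660 ± 545 CPM in Shisa3-led cells and 229 ± 184 CPM in the other cells, a 2.88-fold difference. In epicardial-like cells the mean was 201 ± 185 CPM, with a median of 138, against 584 ± 508 CPM with a median of 393 in all other cells, which was 2.91-fold lower. The log2 ratios of 1.53 in Shisa3-led and -1.54 in epicardial-like cells went below 2-fold in 1 alternative each, at 0.71 with 500 variable genes and at -0.86 with states set by gates on Actc1 and Lhx9. Cardiomyocyte-like cells lay between, at 163 to 674 CPM.

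Alcam, a cell adhesion molecule of the septum transversum list, was the gene most like Plagl1 (rho 0.62, and 0.50 and 0.64 within epicardial-like and Shisa3-led cells). Nnat, itself imprinted, followed at 0.61 and the microfibril gene Mfap2 at 0.60. The mean level of the septum transversum list correlated with Plagl1 at 0.65 over all cells, at 0.39 within epicardial-like cells and at 0.60 within Shisa3-led cells. Unlike that of Mest, this relation of the list level was therefore present inside each of the larger states too. Of 14 measured genes of the list, 6 had a rho of at least 0.3 with Plagl1, Alcam among them, against 2.95% of all genes. Summed septum transversum markers had a median of 1358 CPM in epicardial-like, 2434 CPM in Shisa3-led and 3978 CPM in cardiomyocyte-like cells; their part in the Plagl1 difference was not tested.

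Dlk1 (ENSMUSG00000040856, GRCm38 chr12:109452823-109463336, plus strand) was the one gene of the list with 0 counts in some cells. It was detected in 3 of 10 cardiomyocyte-like cells, where its highest level was 35.4 CPM and 5 cells had 0 counts, against 58 of 64 other cells with a median of 82.4 CPM. The mean was 6.06 ± 11.1 CPM in cardiomyocyte-like cells and 121 ± 121 CPM in the other cells, a log2 ratio of -4.31. Shisa3-led cells had 147 ± 140 CPM (35 of 36 detected, 0 to 499 CPM) and all other cells 65.5 ± 78.6 CPM, a log2 ratio of 1.17. Medians differed less between the 2 larger states, at 84.9 CPM in Shisa3-led and 79.3 CPM in epicardial-like cells. Set directly against epicardial-like cells, the mean of Shisa3-led cells was 1.69 times as high and so within 2-fold; the 2-fold call also took in the 10 cardiomyocyte-like cells, which were near 0. The higher mean in Shisa3-led cells went below 2-fold in 6 of 15 alternatives (lowest log2 ratio 0.29), and the lower level in cardiomyocyte-like cells disappeared with 500 variable genes (log2 ratio 0.10).

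Of 14 measured cardiomyocyte genes, 11 had a rho of -0.3 or lower with Dlk1, against 2.3% of all genes, and the mean level of that list correlated with Dlk1 at -0.52 over all cells, -0.09 within epicardial-like cells and -0.56 within Shisa3-led cells. The fibroblast list correlated with it at 0.61 over all cells, 0.28 within epicardial-like cells and 0.48 within Shisa3-led cells. The fatty acid-binding protein gene Fabp5 (0.64) and the heparan sulfate enzyme gene Hs3st3b1 (0.55) were most like it. In all 74 cells the Dlk1 line was equal to the line of ENSMUSG00000098411, for which GENCODE M21 gives no symbol. The counts may have been divided between the 2 entries, and their sum averaged 210 CPM, against 105 CPM for the Dlk1 line alone. The level of Dlk1 is therefore uncertain, while ratios between cells are the same for the sum. Since the equal line was not left out of the clustering, the differences of Dlk1 between states are not independent of how the states were made.

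Igf2 (ENSMUSG00000048583, GRCm38 chr7:142650766-142666816, minus strand) was expressed evenly. Its mean was 862 ± 224 CPM in epicardial-like, 1041 ± 370 CPM in Shisa3-led and 1078 ± 461 CPM in cardiomyocyte-like cells, each within 1 SD of the others. The cells with the least and the most Igf2, at 195 and 2030 CPM, were both Shisa3-led. Igf2 varied between cells with Prnp (0.49), Ypel5 (0.44), Des (0.44), Fth1 (0.43) and Psap (0.43), and these values were 0.27 to 0.50 within epicardial-like cells and 0.30 to 0.49 within Shisa3-led cells.

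The receptor that clears IGF2 was less even. Igf2r (ENSMUSG00000023830, GRCm38 chr17:12682406-12769664, minus strand) ran from 140 to 592 CPM in cardiomyocyte-like cells, with a median of 384, against 21.1 to 502 CPM with a median of 178 in the other cells. The mean was 363 ± 152 CPM in cardiomyocyte-like cells and 192 ± 103 CPM in the other cells, a log2 ratio of 0.92 and so within 2-fold. In epicardial-like cells it was 139 ± 61.2 CPM and in all other cells 262 ± 131 CPM (log2 ratio -0.91). Set directly against each other, cardiomyocyte-like cells had 2.61 times the Igf2r of epicardial-like cells, with Shisa3-led cells between at 234 ± 111 CPM. Spon1 (0.57), Pdlim7 (0.54) and Acaa2 (0.54) were most like Igf2r. Of 14 measured cardiomyocyte genes, 9 had a rho of at least 0.3 with it, against 3.41% of all genes. The mean level of the cardiomyocyte list correlated with Igf2r at 0.37 over all cells, but at -0.01 within epicardial-like and 0.20 within Shisa3-led cells.

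Peg3 (ENSMUSG00000002265, GRCm38 chr7:6703892-6730431, minus strand) was somewhat higher in Shisa3-led cells, at 1890 ± 816 CPM against 1306 ± 443 CPM in all other cells, a difference below 2-fold and below the SD within Shisa3-led cells. Its 2 highest Shisa3-led cells had 4568 and 3964 CPM, against 2597 CPM in the highest other cell. The genes most like it were Mmp2, a matrix metalloproteinase (0.63), Tgfb2, a TGF-beta ligand (0.56), and Tgfbi, a matrix protein induced by TGF-beta (0.55). For Mmp2 the rho was 0.70 within Shisa3-led cells and 0.06 within epicardial-like cells. Mmp2 and Tgfbi are also leading genes of the Shisa3-led state.

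Grb10 (ENSMUSG00000020176, GRCm38 chr11:11930508-12038683, minus strand) and Ndn (ENSMUSG00000033585, GRCm38 chr7:62346569-62350262, plus strand) did not separate the states. Grb10 averaged 428 ± 159, 379 ± 159 and 472 ± 214 CPM in epicardial-like, Shisa3-led and cardiomyocyte-like cells, and Ndn averaged 391 ± 121, 478 ± 257 and 477 ± 216 CPM. All these gaps were smaller than 1 SD over cells. Ctdnep1 (0.50), Sin3b (0.43) and Tmbim6 (0.41) were most like Grb10, and Ppic (0.44), Mob1a (0.39) and Psmd4 (0.39) were most like Ndn. Ndn had the fewest relations of the list, with 0.391% of genes at a rho of at least 0.3.

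Cdkn1c (ENSMUSG00000037664, GRCm38 chr7:143458339-143461050, minus strand) did not differ 2-fold between states either. It averaged 944 ± 489 CPM in epicardial-like, 1189 ± 597 CPM in Shisa3-led and 846 ± 435 CPM in cardiomyocyte-like cells. Within the states, however, it spread from 234 to 2361 CPM in epicardial-like cells and from 158 to 2273 CPM in Shisa3-led cells. This spread ran against the genes of mitosis. Of 20 G2/M genes, 18 had a rho of -0.3 or lower with Cdkn1c, against 1.77% of all genes, with Ccnb1, the mitotic cyclin B, at -0.50. The mean level of the G2/M list correlated with Cdkn1c at -0.43 over all cells, at -0.69 within epicardial-like cells and at -0.54 within Shisa3-led cells. The S-phase list showed no such relation, with 0.13 over all cells, 0.22 within epicardial-like cells and -0.04 within Shisa3-led cells. Within Shisa3-led cells Cdkn1c also ran against the epicardial list, at -0.53, whereas that value was 0.05 within epicardial-like and -0.22 over all cells.

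**Figure D2:**
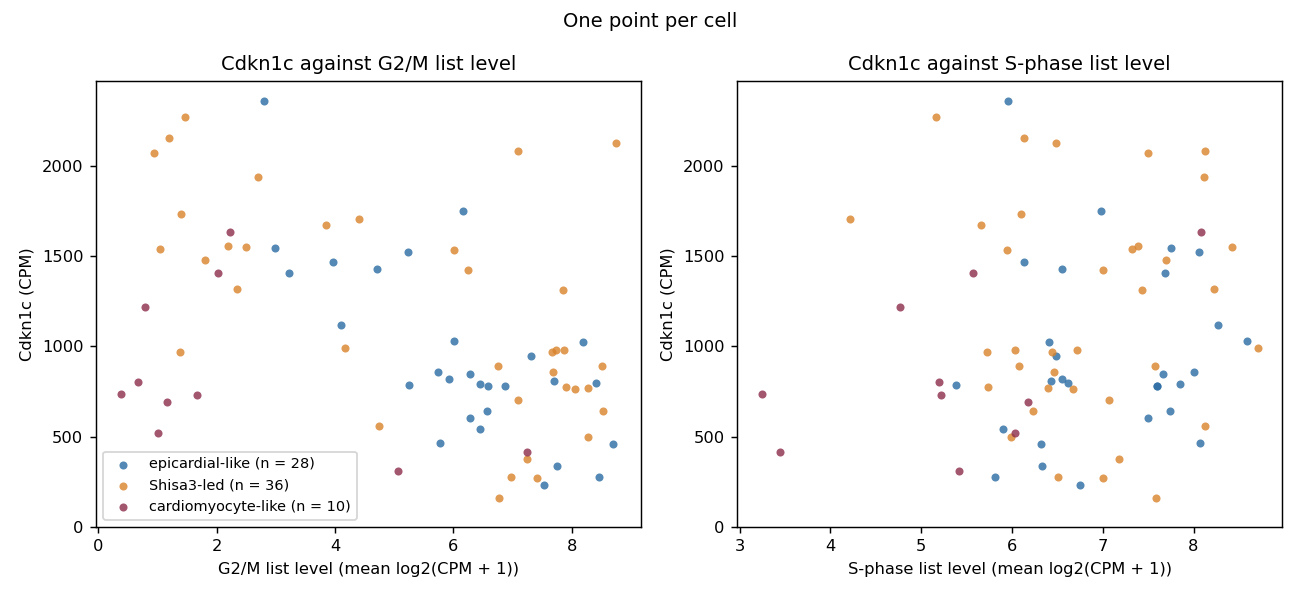
Cdkn1c (CPM) against the mean log2(CPM + 1) of 20 G2/M genes (left) and 20 S-phase genes (right), with 1 point per cell. Epicardial-like and Shisa3-led cells with low G2/M levels have the higher Cdkn1c, most cardiomyocyte-like cells combine low G2/M levels with moderate Cdkn1c, and no slope is seen against the S-phase list.

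Cardiomyocyte-like cells did not follow the same line. All 20 G2/M genes were at least 2-fold lower in them than in the other cells, with a median list level of 1.41 (mean log2 CPM + 1), against 6.28 in epicardial-like and 6.76 in Shisa3-led cells. Their Cdkn1c, at 308 to 1635 CPM, had a median of 732 CPM, against 957 CPM in the other cells. The other maternally expressed genes also ran against the G2/M list, more weakly. Of its 20 genes, 12 had a rho of -0.3 or lower with Grb10, against 1.54% of all genes, and 10 did with Igf2r, against 4.37%. For Grb10 the list level gave -0.38 over all cells, -0.18 within epicardial-like and -0.52 within Shisa3-led cells. For Igf2r it gave -0.37, -0.15 and -0.22, and since Igf2r was highest in the cells with the lowest G2/M levels, the part of cell state in this relation was not tested. None of the 6 paternally expressed genes had a G2/M gene at -0.3 or lower. Their correlation with the list level was between -0.18 and 0.20 over all cells. Within states some paternally expressed genes were as negative as Igf2r: Ndn was at -0.33 within Shisa3-led cells, and Igf2 was at -0.23 within epicardial-like cells. The values of the parental classes thus overlapped within states.

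The other cyclin-dependent kinase inhibitors were detected in fewer cells than Cdkn1c. Cdkn2d was detected in 43 of 74 cells, at a mean of 17.4 ± 20.5 CPM, Cdkn1b in 20, Cdkn2b in 4, Cdkn2c in 3 and Cdkn1a in 2. Cdkn2a had 0 counts in 74 cells. By the limit of 3 cells that a count of 0 allows, which is not a Clopper-Pearson bound, up to 4.05% of such cells could have counts of it, and this does not limit the share that express it. Of 7 measured genes in the list of inhibitors and G1 cyclins, 2 differed 2-fold in a state, Ccnd1 and Ccne1 (28.6%, against 32.9% of all genes). Ccnd1 averaged 185 ± 137 CPM in epicardial-like and 42.3 ± 57.4 CPM in all other cells, whereas Ccnd3 averaged 503 ± 146 CPM in epicardial-like and 531 ± 270 CPM in all other cells.

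Most pairs of the list had a rho between -0.3 and 0.3 over all cells. Of 36 pairs, 4 had a Spearman's rho of at least 0.3 over the 74 cells. These were Plagl1 with Peg3 (0.50), Igf2 with Cdkn1c (0.33), Peg3 with Dlk1 (0.33) and Plagl1 with Dlk1 (0.32). Such values were reached by 3.7% of pairs among all genes detected in every cell and by 1.24% among all measured genes. At -0.3 or lower were 2 pairs, Mest with Igf2r (-0.49) and Mest with Plagl1 (-0.48), against 2.11% and 0.891% of pairs. In both directions the share among the 36 pairs was above these shares, but pairs that have a gene in common are not independent. Points in each correlation are cells of 1 sample, and the 2 values of a point come from the same library and share its depth. The correlation of each gene with total counts was between -0.07 and 0.17, and holding the rank of total counts constant again gave 4 and 2 pairs, with Igf2r and Plagl1 (0.31) in place of Plagl1 and Dlk1 (0.30).

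Over all cells Mest stood apart from the rest. Of the 28 pairs without Mest, 27 were positive, with a median of 0.18, and the only negative pair was Igf2r with Dlk1 (-0.20). Of the 8 pairs with Mest, 6 were negative, with a median of -0.13. With thinned counts, 23 of the 28 pairs were positive and 4 of the 8 were negative. These numbers were 20 and 3 within epicardial-like cells, and 24 and 7 within Shisa3-led cells. The share of positive pairs among all genes is not given here. In a split at the medians, 11 cells were above the median for both Mest and Plagl1, 26 for Mest alone, 26 for Plagl1 alone and 11 for neither. For Plagl1 and Peg3 the counts were 24, 13, 13 and 24. Parental class did not sort the pairs: the median rho was 0.09 for 15 pairs of paternally expressed genes, 0.09 for 3 pairs of maternally expressed genes and 0.13 for 18 mixed pairs.

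**Figure D3:**
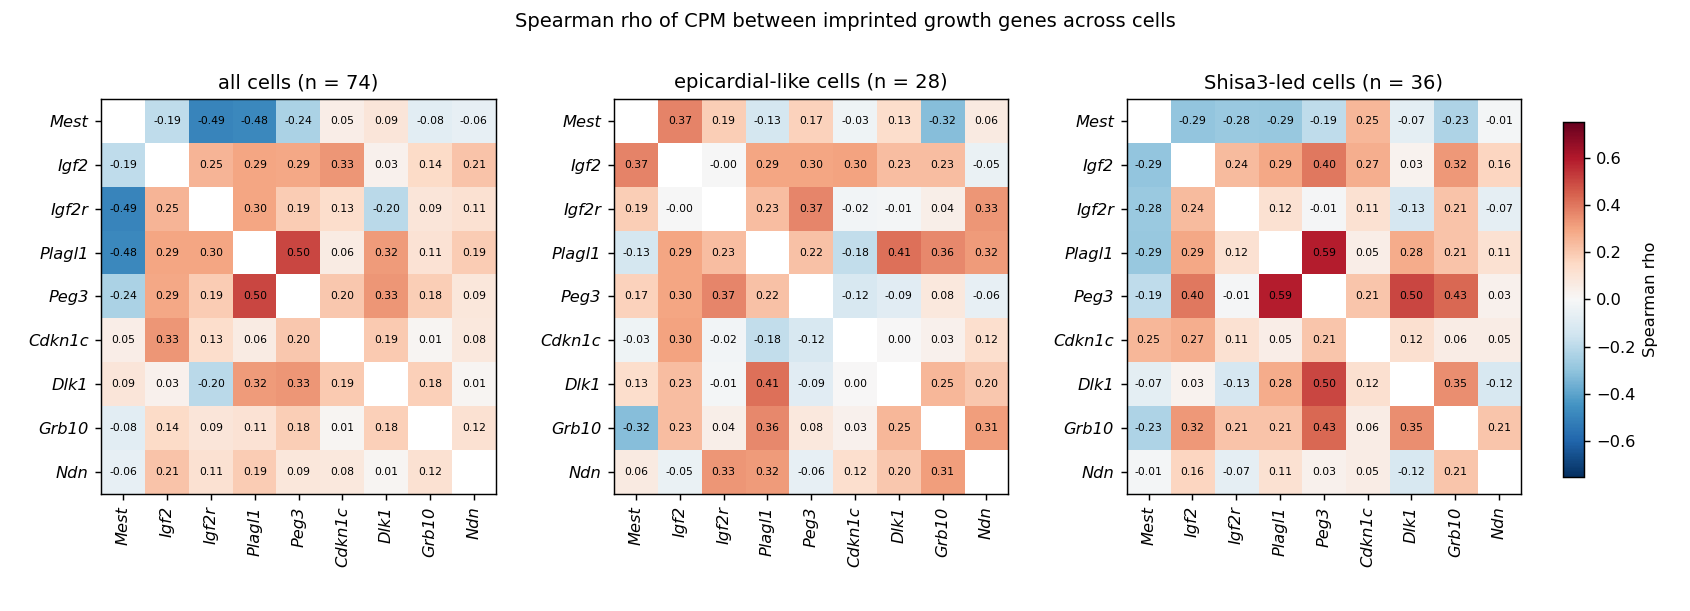
Spearman's rho between the CPM of each pair of the 9 genes, over all 74 cells and within the 28 epicardial-like and 36 Shisa3-led cells (colour and printed value). Mest with Igf2r and Mest with Plagl1, negative over all cells, are at 0.19 and -0.13 within epicardial-like cells, Mest with Grb10 is at -0.32 there, and Plagl1 with Peg3 reaches 0.59 within Shisa3-led cells.

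Within states the picture changed. In the 28 epicardial-like cells Mest correlated with Igf2r at 0.19 and with Plagl1 at -0.13, against -0.49 and -0.48 over all cells. Within Shisa3-led cells they were -0.28 and -0.29. Mest with Igf2 was 0.37 in epicardial-like and -0.29 in Shisa3-led cells. In epicardial-like cells 8 pairs reached 0.3 and 1 pair -0.3, Mest with Grb10 (-0.32), against 7.95% and 6.83% of pairs among genes detected in every cell. In Shisa3-led cells 6 pairs reached 0.3 and none -0.3, against 5.57% and 4.74%.

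Plagl1 with Peg3 had the highest rho. Its rho was 0.59 within Shisa3-led cells and 0.22 within epicardial-like cells. The cell with the most Plagl1, at 2211 CPM, was also the cell with the most Peg3, at 4568 CPM. Leaving out the highest cell of each gene, or thinning 66 cells to equal depth with the 8 shallowest left out, kept this pair above 0.3. In Shisa3-led cells Peg3 also correlated with Dlk1 (0.50), Grb10 (0.43) and Igf2 (0.40) and was in 4 of the 6 pairs that reached 0.3 there, whereas in epicardial-like cells Peg3 with Dlk1 was -0.09. Cardiomyocyte markers varied strongly among Shisa3-led cells, and within them Peg3 correlated with that list at -0.52, Plagl1 at -0.48 and Dlk1 at -0.56; the part of these markers in the pairs was not tested.

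**Figure D4:**
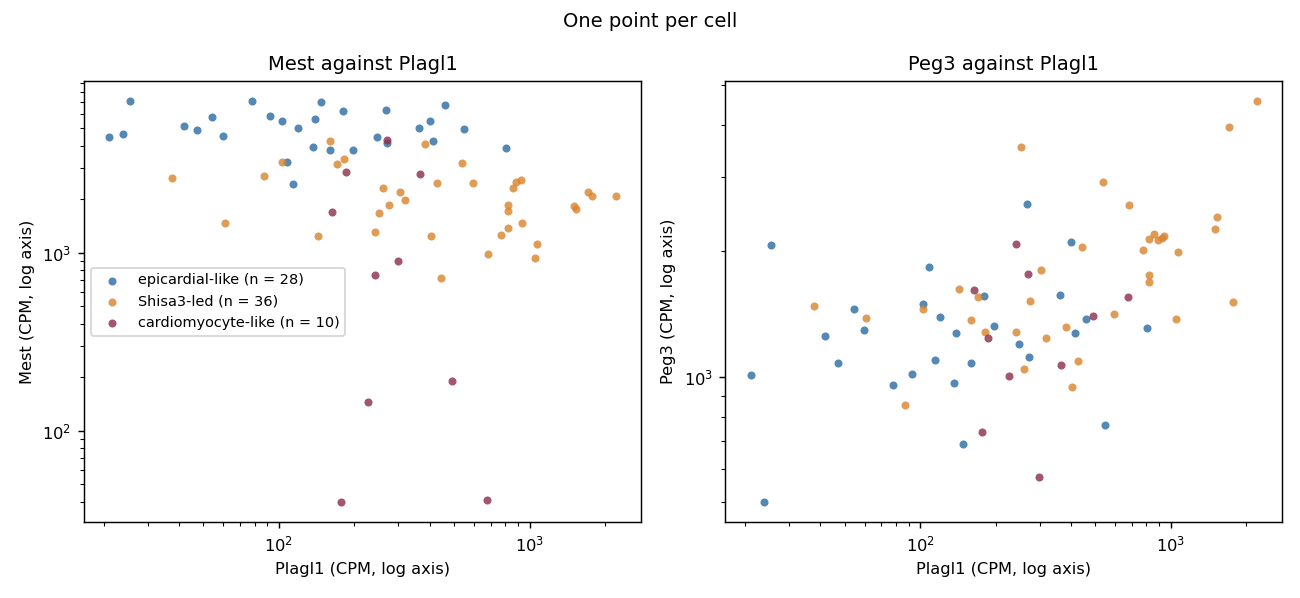
Mest (left) and Peg3 (right) against Plagl1, in CPM on log axes, with 1 point per cell coloured by state. Epicardial-like cells sit at high Mest over a wide range of Plagl1, and the cells with the most Plagl1 are Shisa3-led and have high Peg3.

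Other genes listed as imprinted gave a setting for the list. Whether each of them is imprinted in these cells was not measured. Of 71 further imprinted genes, 57 had a line in the table and 36 were detected in at least 10% of cells. Of these, 12 differed 2-fold in some state (33.3%, against 32.9% of all genes). Dcn, a matrix proteoglycan, was most like Mest, with a rho of 0.60 over all cells and -0.20 within each of the larger states. It was detected in 26 of 28 epicardial-like cells at a mean of 101 ± 87.0 CPM, against 6 of 46 other cells at 6.14 ± 18.3 CPM, and in 0 of 10 cardiomyocyte-like cells, where the same limit of 3 cells allows counts in up to 30% of cells. Ddc, an amine-forming decarboxylase, averaged 151 ± 110 CPM in epicardial-like and 54.8 ± 61.7 CPM in the other cells.

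Like Plagl1, 5 of the 36 were lower in epicardial-like cells (13.9%, against 11.4% of all genes). Asb4, a ubiquitin ligase subunit, averaged 312 ± 192 CPM in epicardial-like and 866 ± 508 CPM in the other cells. Nnat, the proteolipid neuronatin, averaged 132 ± 74.1 and 342 ± 165 CPM in the same groups. Peg12, Herc3 and Cobl, an actin nucleator, were the other 3. Over cells, however, Plagl1 correlated with Nnat at 0.61, Cobl at 0.42, Asb4 at 0.37, Herc3 at 0.22 and Peg12 at 0.12, and for Asb4 the value was 0.15 within epicardial-like and 0.08 within Shisa3-led cells. In turn, Asb4, Peg12, Phlda2 and Cobl were higher in Shisa3-led cells (11.1%, against 6.95% of all genes). Gnas, the abundant gene of a stimulatory G protein, was lower in epicardial-like cells within 2-fold, at 621 ± 155 against 1087 ± 339 CPM, yet had the most negative rho with Mest of the 36 genes (-0.68). Within epicardial-like cells this was -0.13 and within Shisa3-led cells -0.17.

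In cardiomyocyte-like cells 7 of the 36 further imprinted genes were lower (19.4%, against 17.2% of all genes) and none was higher, so the share of lower genes was near that of all genes. Besides Dcn and Ddc these were Ube3a, Phlda2, Rtl1, Inpp5f and Smoc1. Rtl1, which lies 126 kb from Dlk1 in the same imprinted cluster, was low throughout, at 0.13 CPM in cardiomyocyte-like and 1.72 CPM in the other cells. Slc22a2, Dio3 and Ins2 were among 4 imprinted genes with 0 counts in all 74 cells.

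**Figure D5:**
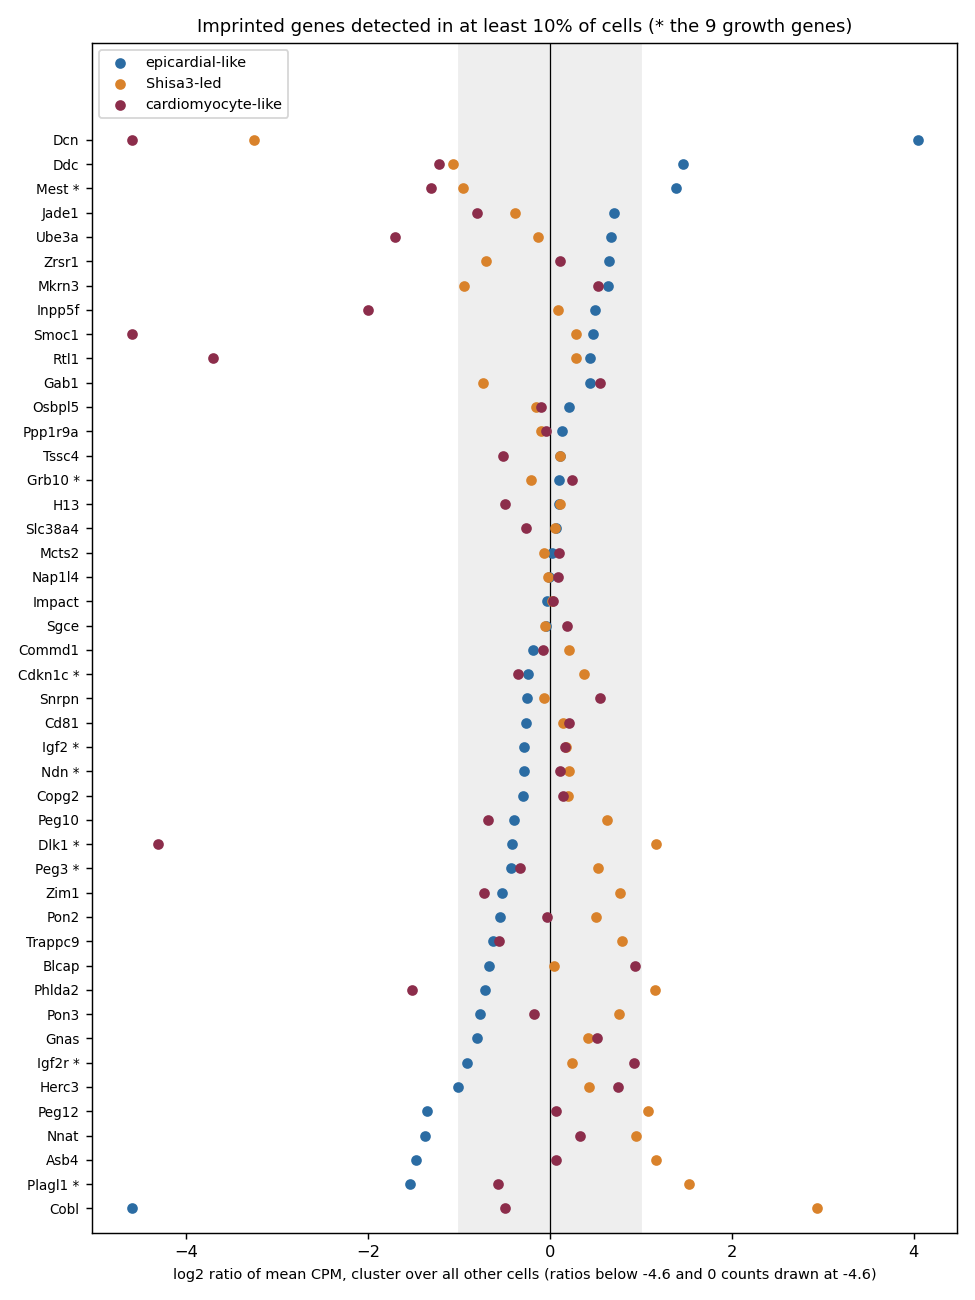
Log2 ratio of mean CPM in each state over all other cells for the 9 growth genes (asterisk) and 36 other imprinted genes detected in at least 10% of cells, sorted by the epicardial-like ratio. The grey band holds ratios within 2-fold, and the members outside it are Mest, Plagl1 and Dlk1.

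Neighbouring imprinted genes differed in how far they varied together. Peg3 and Zim1, 7.44 kb apart, had a rho of 0.42 over all cells, 0.24 within epicardial-like and 0.54 within Shisa3-led cells. Closer pairs outside the list were lower over all cells. Sgce with Peg10, 0.099 kb apart, was at 0.17, and the overlapping genes Blcap and Nnat were at 0.20 over all cells, -0.02 within epicardial-like and 0.01 within Shisa3-led cells. Grb10 with Ddc, 32.4 kb away, was 0.05, and Grb10 with Cobl on its other side was -0.09, although Ddc was higher and Cobl lower in epicardial-like cells and Grb10 was even. Igf2 with Cdkn1c, 792 kb apart on the same chromosome, was 0.33. Dlk1 with Rtl1 was 0.25, Mest with Copg2 was -0.10, and Ndn was between -0.14 and 0.03 with its neighbours Mkrn3, Peg12 and Snrpn.

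Some genes that carry or limit the IGF signal differed between states. Of 16 measured genes of the axis, 7 were called in some state (43.8%, against 32.9% of all genes) and 9 were within 2-fold in every state, among them Akt1, a kinase of the pathway. Igfbp2, which binds IGFs outside the cell, averaged 98.7 ± 78.8 CPM in epicardial-like and 19.0 ± 32.5 CPM in the other cells, and Pappa, a protease that cuts IGF-binding proteins, averaged 51.4 ± 39.6 and 24.2 ± 41.5 CPM. The insulin receptor gene Insr was lower in epicardial-like cells, at 39.8 ± 45.0 against 90.9 ± 86.1 CPM.

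In cardiomyocyte-like cells the binding proteins did not move together. Igfbp5 averaged 1087 ± 297 CPM in cardiomyocyte-like and 579 ± 417 CPM in the other cells, within 2-fold, and all 10 cardiomyocyte-like cells lay above the median of all cells. Igfbp3 was detected in 1 of 10 cells at a mean of 1.73 ± 4.67 CPM, against 45 of 64 other cells at 173 ± 255 CPM. Igfbp4 averaged 445 ± 376 CPM in cardiomyocyte-like and 940 ± 440 CPM in the other cells, and Igfbp2, Pappa and Pik3r1 were lower as well. Igf1 was higher there, at 16.5 ± 30.6 against 5.52 ± 15.7 CPM, but was detected in only 3 of 10 and 14 of 64 cells. Igf1r, the receptor through which IGF2 signals, was within 2-fold in every state. The messenger-binding proteins Igf2bp1, Igf2bp2 and Igf2bp3 were detected in all 74 cells, also within 2-fold.

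Of 12 measured genes in the imprint-maintenance list, 5 were called in some state (41.7%, against 32.9% of all genes). These were Zfp57, Uhrf1, Dnmt3b, Tet2 and Zfp445. The list also holds genes that set or remove DNA methylation, among them Dnmt3b and Tet2. Tet2 and Zfp445 were each detected in only 9 of 74 cells. Trim28, the corepressor recruited by ZFP57, was even, at 340 ± 100, 375 ± 155 and 290 ± 101 CPM in epicardial-like, Shisa3-led and cardiomyocyte-like cells. Zfp57 was low, at 7.04 ± 10.7 CPM over all cells, and was detected in 33 of 74. Uhrf1, which guides DNA methylation to new strands during replication and is also in the S-phase list, averaged 74.2 ± 82.4 CPM in cardiomyocyte-like and 367 ± 170 CPM in the other cells. Dnmt3a was within 2-fold in every state.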

How the data were processed

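Values were estimated counts per gene for 74 cells, as the authors deposited them; kallisto, without a version, and the human build hg38 stand in the submitters' processing notes, although every identifier is a mouse Ensembl identifier. All values were whole numbers, and the rounding and the summing to genes are not given in the sources used here. GENCODE M21 (GRCm38) gave symbols for 29857 of 30323 lines, and lines without one held 0.357% of counts. Depth was 216177 to 2618538 counts per cell (median 849718). Reads carry no molecular identifiers, so intervals and limits cover counting error only, and a count of 0 allows up to 3 cells.

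The members and lists were chosen with earlier results of these data known. Genes named beside the members are those of highest rho with each (5 for Mest and Igf2, 3 for the others), the 3 most abundant genes of a list, and the genes of the imprinted and IGF lists called 2-fold in a state; some are left out of the text, and the other inhibitors, imprint-maintenance genes and neighbouring genes were chosen after their values were seen.

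Counts were scaled to CPM. A gene was detected at 5 or more counts and measured if detected in at least 10% of cells (11511 genes). States came from 12304 genes with 5 counts in at least 5 cells. Genes of the imprinted lists were left out, but the line equal to that of Dlk1 was not. The 1000 most variable genes relative to a lowess trend (fraction 0.3) on log2(CPM + 1) were scaled and reduced to 10 principal components. Cells were then cut into 3 clusters by Ward's method. Doublets were not searched for. Each library was prepared from a sorted cell, which does not exclude doublets. Lists named in the text hold genes fixed by hand, and a list level is the mean log2(CPM + 1) of its genes. H19, Meg3, Airn and Kcnq1ot1 had no line in the count table and could not be analysed. In simulated data with 200 of 12304 genes changed, the adjusted Rand index was -0.0215 without a change, -0.00752 at 2-fold and 0.951 at 4-fold, so states set apart by small changes could be missed. Python 3.11.15, scikit-learn 1.9.0, SciPy 1.17.1, statsmodels 0.14.6, R 4.3.3 and scran 1.30.0 were used.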

Additional observations from a re-analysis of the deposited data

How the results depend on the processing

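Of 131 alternative values for the counts and list summaries, 104 stayed within 1.5 times the main value. Of 751 for single genes and pairs, 700 were counted as unchanged, which for ratios and correlations means keeping their side of the mark. Mean levels have no mark and all counted as unchanged, also that of Dlk1, at 105 CPM and at 210 CPM with its lines summed. The number is therefore no measure of how firm a single result is. Values that did not reach the mark could change sign. For example, the log2 ratio of Plagl1 in cardiomyocyte-like cells went from -0.57 to 0.54 with 500 variable genes. Leaving out cells of negative silhouette, summing the Dlk1 lines, leaving out the highest cells and exon union length were chosen after seeing the data. Members lower in epicardial-like cells (1) became 2 with 5 components, with negative-silhouette cells left out or at 1.5-fold, and 0 with gates. Members higher in Shisa3-led cells (2) became 1 with 2000 variable genes, 5 or 20 components, gates or thinned counts, and 0 with 500 variable genes; members lower there (0) became 1 without negative-silhouette cells, at 1.5-fold or by medians. In cardiomyocyte-like cells members higher (0) became 1 at 1.5-fold or by medians, and members lower (2) became 0 with 500 variable genes, where the log2 ratio of Dlk1 was 0.10. Pairs at 0.3 or above (4) became 2 with thinned counts, 8 without the cardiomyocyte-like cells and 8 within epicardial-like cells; pairs at -0.3 or below (2) became 1 within epicardial-like and 0 within Shisa3-led cells. Of the pairs that reached 0.3 or -0.3 over all cells, those reversed within epicardial-like cells were Mest with Igf2r (0.19) and Peg3 with Dlk1 (-0.0859). Mest with Igf2, at -0.19 over all cells, was at 0.37 there. At 1.5-fold, 22 other imprinted (main 12), 13 IGF-axis (7), 9 imprint-maintenance (5) and 5 inhibitor and cyclin genes (2) were called; maintenance genes became 3 at detection in 25% of cells, and inhibitors and cyclins 4 without negative-silhouette cells. The causes were not tested. No paired analysis was possible because there is 1 group. With 10 cells in the smallest state, differences that rest on it are the least certain.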
